A study of Mus musculus with 8 samples.

Results

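Genomic imprinting is the expression of a gene mainly from the chromosome inherited from one parent. For most imprinted genes, though not all, the silent allele is set in the germ line by DNA methylation at control regions. Many imprinted genes lie in clusters in which maternally and paternally expressed genes neighbour each other. Polycomb repressive complex 2 (PRC2), whose catalytic subunit EZH2 methylates lysine 27 of histone H3, is known to mark the silent allele of some imprinted genes, mainly in the placenta. The genes described here are 48 listed imprinted genes, read in whole embryonic mouse lungs in which Ezh2 was deleted in the epithelium. They were found by gene symbol, through probe sets that list a single gene, and where a gene had several of them the brightest on average was kept. Of the 48, 40 were measured in this way, out of 22180 genes in all, and 21 of them are known as maternally expressed, 18 as paternally expressed and 1, Gnas, as either according to the transcript.

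The lungs came from embryonic day 14.5 and from a mixed C57BL/6 x 129S6 background. The 4 control embryos carried Shh-cre, and the 4 mutant embryos carried Shh-cre with 2 floxed Ezh2 alleles (Shh-cre:Ezh2-flox/flox), so the cre transgene was common to both groups. Shh-cre is active in the endoderm, from which the lung epithelium is formed, and the mesenchyme, vessels and nerves of these lungs were outside its reach. The arrays read RNA of the whole organ and of both parental alleles together, so neither the allele of origin nor the cell of origin of any value below was measured. Controls 1 and 2, controls 3 and 4, mutants 1 and 2 and mutants 3 and 4 were littermates. Each of the 4 litters held a single genotype, so litter, the share of each strain in it and genotype cannot be told apart.

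Values are log2 expression levels as deposited, a difference is the mutant mean minus the control mean on that scale, and the test was limma with litter as a random block, adjusted by Benjamini-Hochberg over the 22180 genes at 0.05. The 8 arrays had medians between 7.05 and 7.12. Ezh2, the targeted gene, stood at 11.87 ± 0.05 in controls and at 11.78 ± 0.02 in mutants (SD, n = 4 each), a difference of -0.09 with an adjusted p of 0.652 in limma. The 4 mutants lay below the 4 controls in Ezh2. Cells outside the epithelium kept the gene, and whether the probes lie in the deleted part was not given, so this value checks the labels weakly.

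No member of the imprinted set rose or fell. Among all genes 0.604% rose and 0.248% fell in the same fit, 0.852% together, so an empty count among 40 genes is near what the background share gives. At an unadjusted limma p under 0.05, 5 members were higher and 4 lower, which is 12.5% and 10% of the 40, beside 5.61% and 4.26% of all genes. The 4 mutants lay wholly above the 4 controls for Asb4, Peg10, Rian and Sfmbt2, and wholly below them for Pon3, Nnat and Gatm. Those 4 higher and 3 lower members stand beside 4.48% and 3.6% of all genes. For each of these 7 genes the two-sided exact permutation test over the 8 embryos gave 0.0286, the smallest p that 4 against 4 can give, and littermates are not independent in it. The log2 difference was positive in 20 members and negative in 20, with a median of 0.00 for the members and 0.01 for all genes, of which 52.9% were positive.

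**Figure D1:**
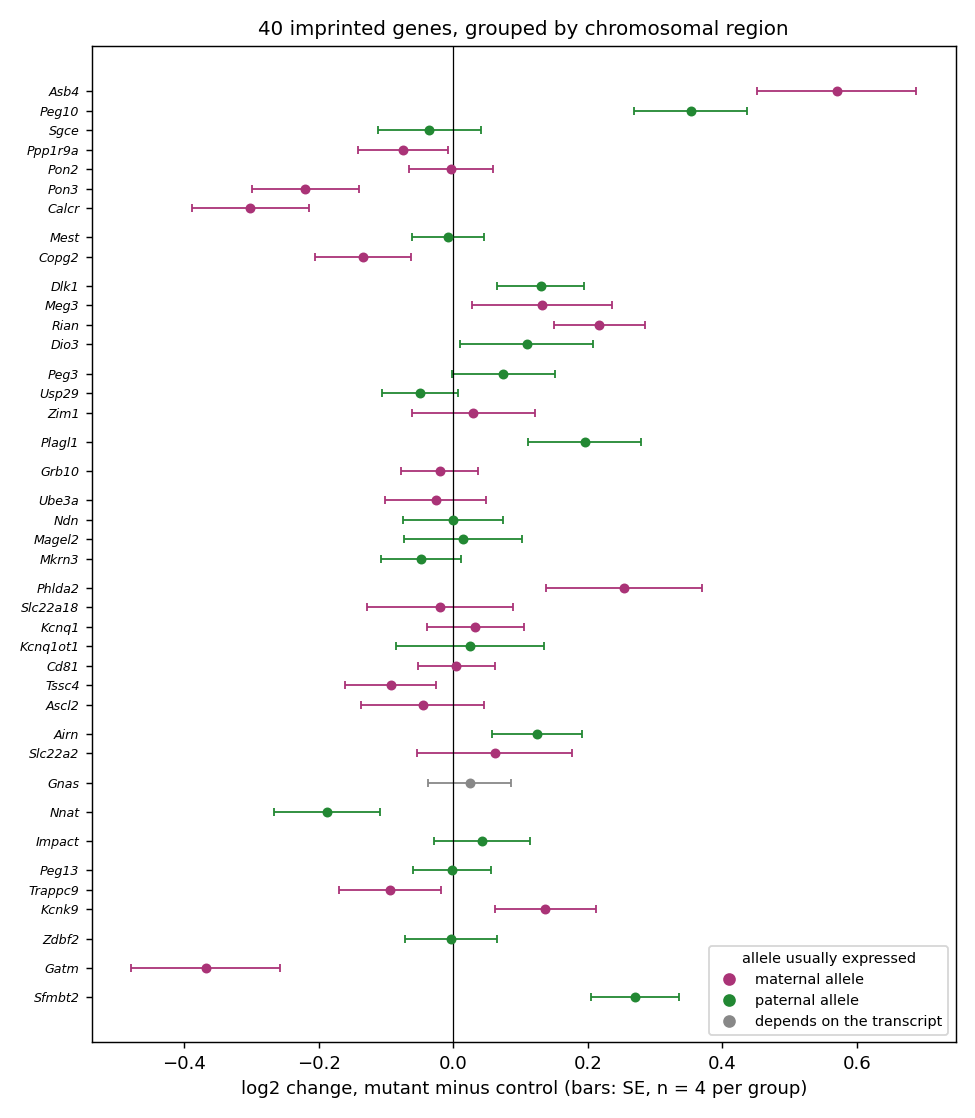
Log2 difference between mutant and control lungs (x axis) for the 40 measured imprinted genes, in rows by gene. Colours give the allele known to be expressed, points the limma estimates and bars their SE (n = 4 per group). Asb4 (0.57) and Peg10 (0.35) lie farthest to the right and Gatm (-0.37) farthest to the left.

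Maternally and paternally expressed members had median differences close to 0. The 21 maternally expressed genes had a median difference of -0.02, with 9 positive and 12 negative, and the 18 paternally expressed genes had a median of 0.02, with 10 positive and 8 negative. The mean level over the maternally expressed genes lay between 8.71 and 8.76 in every embryo of both groups. The mean over the paternally expressed genes lay between 9.36 and 9.42 in controls and between 9.43 and 9.48 in mutants. The highest control and the lowest mutant lay next to each other, and no p is given for a list chosen with results known. Many members are known to be imprinted mainly in placenta or brain and to be expressed from both alleles elsewhere. The 7 maternally expressed genes with broad imprinting had a median of 0.13, and the 14 with imprinting known mainly from particular tissues had a median of -0.06. Embryo means of the 7, which include Asb4, ran from 9.09 to 9.16 in controls and from 9.26 to 9.33 in mutants. Those of the 14, which include Gatm, went the other way, from 8.51 to 8.56 in controls and from 8.41 to 8.48 in mutants. The 16 paternally expressed genes with broad imprinting had a median of 0.02.

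The Peg10-Asb4 cluster on chromosome 6, the chromosome of Ezh2 itself, held both of the largest positive differences in the set. Whether the shared chromosome played a part was not tested. In the cluster Peg10 and Sgce are paternally expressed from a shared control region, and Asb4, Ppp1r9a, Pon2, Pon3 and Calcr are expressed maternally or with maternal bias in some tissues. Asb4 encodes an ankyrin-repeat protein with a SOCS box, which recruits substrates to a ubiquitin ligase. It stood at 8.32, 8.43, 8.53 and 8.33 in controls 1 to 4 and at 9.08, 9.09, 8.62 and 9.10 in mutants 1 to 4. Mutants 1, 2 and 4 were close together and well above every control, while mutant 3 lay just above the highest control. The difference was 0.57 ± 0.12 (SE; 95% confidence interval 0.31 to 0.83), with an adjusted p of 0.0566 in limma. Without mutant 3 the difference was 0.69 and the adjusted p 0.00108, and over 23 alternatives the adjusted p ran from 0.000889 to 0.237, with 9 of them under 0.05. In whole organs, more cells of a type and more RNA per cell cannot be told apart.

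Peg10, a gene derived from a retrotransposon and required for placenta formation, stood at 9.92, 9.77, 9.70 and 9.56 in the controls and at 10.03, 9.998, 10.17 and 10.15 in the mutants. The groups did not overlap, although control 1 came close to the lower mutants. The difference was 0.35 ± 0.08 (SE; 95% confidence interval 0.17 to 0.54), with an adjusted p of 0.107 in limma. Without control 1 it was 0.41 with an adjusted p of 0.0398, and 3 of 23 alternatives put it under 0.05. Asb4 and Peg10 are known to be expressed from opposite parental chromosomes, and both were higher in the mutant lungs.

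The neighbours of Peg10 and Asb4 did not show the same difference. Sgce, which encodes epsilon-sarcoglycan and starts next to Peg10, stood at 9.87, 9.98, 10.19 and 10.05 in controls and at 10.04, 10.01, 9.90 and 10.003 in mutants. The groups of Sgce were interleaved, with a difference of -0.04 and a 95% confidence interval from -0.20 to 0.13. Ppp1r9a, which encodes the actin-binding protein neurabin, stood at 9.46, 9.44, 9.33 and 9.57 in controls and at 9.41, 9.39, 9.34 and 9.35 in mutants, a difference of -0.07. The groups of Ppp1r9a overlapped as well. Pon2, a paraoxonase of intracellular membranes, stood at 8.64, 8.65, 8.75 and 8.77 in controls and at 8.73, 8.67, 8.77 and 8.63 in mutants, a difference of -0.00.

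Pon3 and Calcr were lower in the mutants. Pon3, a paraoxonase that hydrolyses lactones, stood at 8.61, 8.59, 8.86 and 8.70 in controls and at 8.37, 8.50, 8.43 and 8.58 in mutants. All 4 mutants of Pon3 lay below the controls, mutant 4 by a narrow margin, and the difference was -0.22 ± 0.08 (SE) with an adjusted p of 0.377 in limma. Calcr, the calcitonin receptor, stood at 6.84, 6.92, 7.01 and 6.74 in controls and at 6.74, 6.60, 6.53 and 6.43 in mutants. Mutant 1 and control 4 of Calcr were almost equal, so the groups met, and the difference of -0.30 ± 0.09 (SE) had an unadjusted limma p of 0.0053 and an adjusted p of 0.21.

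**Figure D2:**
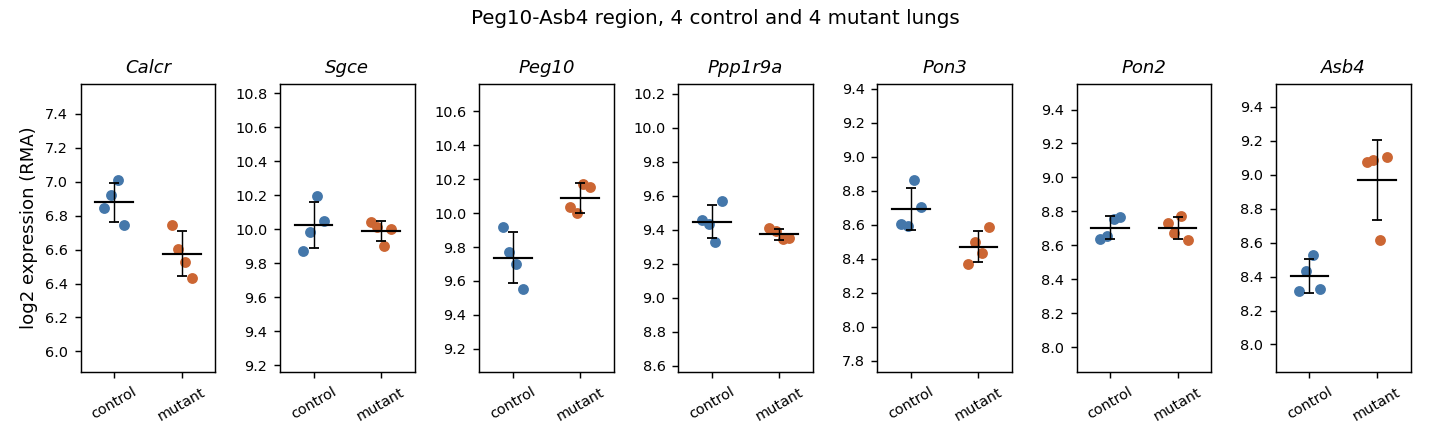
Log2 expression (y axis) of the 7 measured genes of the Peg10-Asb4 cluster in 4 control and 4 mutant lungs; points are embryos, horizontal lines group means and bars 1 SD, with y axes of equal span. Mutants lie above controls for Asb4 and Peg10 and below them for Pon3, and the groups overlap for Sgce, Ppp1r9a, Pon2 and Calcr.

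As a set, the 7 genes of the cluster had a median difference of -0.04, with 2 positive and 5 negative, and the 33 members elsewhere had a median of 0.01, with 18 positive and 15 negative. In the cluster 3 of the 7 genes had groups that did not overlap, against 4 of the 33 elsewhere, beside 8.07% of all genes. The mean level over the 7 genes ranged from 8.81 to 8.91 in controls and from 8.82 to 8.92 in mutants. In the order of RefSeq, 16 genes between Calcr and Asb4 were measured, with 7 positive and 9 negative differences and a median of -0.01. Among the unlisted neighbours, named after their values were seen, Casd1 beside Sgce differed by -0.02 and Pon1 beside Ppp1r9a by 0.02, while Gng11, a G protein gamma subunit farther off, differed by -0.33 with groups apart and an adjusted p of 0.306 in limma.

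In the Dlk1-Dio3 cluster on chromosome 12 all 4 measured members had a positive difference, from 0.11 to 0.22. The paternal chromosome of this cluster expresses Dlk1, Rtl1 and Dio3, and the maternal one a chain of noncoding RNAs, Meg3, Rian and Mirg, which host small nucleolar RNAs and microRNAs. Rian stood at 10.99, 11.002, 10.92 and 11.07 in controls and at 11.26, 11.14, 11.31 and 11.15 in mutants. The groups of Rian were apart by a small gap, and the difference was 0.22 ± 0.07 (SE) with an adjusted p of 0.264 in limma. Meg3, the long noncoding RNA at the head of the chain, differed by 0.13, with 7.32 ± 0.20 in controls and 7.45 ± 0.10 in mutants (SD, n = 4 each). Dlk1, a Notch-like membrane protein that holds back differentiation, differed by 0.13, and Dio3, the deiodinase that inactivates thyroid hormone, differed by 0.11. The groups of Meg3, Dlk1 and Dio3 overlapped in these single-gene probe sets. Brighter probe sets that list Meg3 with microRNAs are given below. Rtl1 and Mirg were listed but could be read only through probe sets that also list microRNAs.

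The small RNA genes of this cluster were therefore read one by one, in a list drawn up after the values of Rian were seen. Between Dlk1 and Dio3 in RefSeq, 55 genes were measured, of which 3 rose and none fell in limma, beside 0.604% and 0.248% of all genes. At an unadjusted p under 0.05, 17 were higher and 3 lower, beside 5.61% and 4.26% of all genes. Of the 55, 43 had a positive difference and 12 a negative one. The groups did not overlap for 12 of the 55 with mutants higher and for 1 with mutants lower, beside 4.48% and 3.6% of all genes. The median difference was 0.13, beside 0.01 for all genes. Neighbouring genes that are cut from shared transcripts are not independent readings. Of the 43 microRNA genes 32 were positive, with a median of 0.15, and of the 6 small nucleolar RNA genes 5 were positive, with a median of 0.14. The 3 genes that rose were microRNA genes, Mir453, Mir882 and Mir495. Mir453 lies inside Mirg in RefSeq, Mir882 lies between Rian and Mir379, and Mir495 lies in the large microRNA group that follows Mir379.

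The mature sequences of these 3 genes are shown because they name the small RNAs of the cluster whose genes rose and the seeds they carry. They are from RefSeq on GRCm38.p6, written 5′ to 3′, and capitals mark the seed, bases 2 to 8.
mmu-miR-453 (chr12:109735669-109735692, plus strand): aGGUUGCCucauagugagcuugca
mmu-miR-882 (chr12:109682207-109682228, plus strand): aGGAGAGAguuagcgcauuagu
mmu-miR-495-3p (chr12:109718795-109718816, plus strand): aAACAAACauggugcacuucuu
mmu-miR-495-5p (chr12:109718757-109718779, plus strand): gAAGUUGCccauguuauuuuucg
The 43 measured microRNA genes have 80 different mature sequences with 73 different seeds, of which 7 are shared by more than 1 sequence. The seed of mmu-miR-453 is shared with mmu-miR-496a-5p, whose gene Mir496a, also inside Mirg, differed by -0.00. The other 3 sequences share their seeds with no further measured microRNA of the cluster.

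Mir453 stood at 8.996, 9.20, 9.37 and 9.22 in controls and at 10.45, 10.34, 10.24 and 10.41 in mutants. The groups were far apart, and the difference of 1.16 ± 0.09 (SE) had an adjusted p of 6.4e-05 in limma and stayed under 0.05 in 23 of 23 alternatives. Mir882 stood at 4.42, 4.33, 4.11 and 4.73 in controls and at 5.27, 5.62, 5.21 and 5.01 in mutants, a difference of 0.88 ± 0.16 (SE) with an adjusted p of 0.028. Mir495 stood at 4.71, 4.78, 4.98 and 4.79 in controls and at 5.13, 5.35, 5.23 and 5.33 in mutants, a difference of 0.44 ± 0.08 (SE) with an adjusted p of 0.0285. Control means were 4.40 for Mir882 and 4.82 for Mir495, beside a median control level of 7.55 over all genes, so both were dim. In a limma fit over all 41345 probe sets the adjusted p of Mir882 was 0.112. The mutants of both genes lay above every control. In the fit over genes the adjusted p stayed under 0.05 in 15 of 22 alternatives for Mir882 and in 14 of 22 for Mir495. For Mir882 it was 0.0684 without control 2, 0.0608 without control 3, 0.0593 without mutant 1 and 0.0502 without mutant 4. For Mir495 it was 0.0542 without control 1, 0.0696 without control 2, 0.14 without control 4 and 0.125 without mutant 4. Single embryos could thus end either call, and so could litters. The adjusted limma p of Mir882 was 0.109 without litter 1 (controls 1 and 2) and 0.0797 without litter 3 (mutants 1 and 2). For Mir495 it was 0.083 on litter means, 0.131 without litter 1, 0.0569 without litter 3 and 0.144 without litter 4 (mutants 3 and 4).

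Not every gene of the cluster was higher. Mir154, the gene next to Mir453 within Mirg, stood at 6.63, 6.65, 6.90 and 7.01 in controls and at 6.17, 6.39, 6.55 and 6.46 in mutants, a difference of -0.41 with an adjusted p of 0.162 in limma. Its mutants all lay below its controls, the reverse of Mir453. Mir1197 differed by -0.58 with groups that overlapped. The array of control 3 had the lowest median of the 8, at 7.05. Control 3 was also the lowest control for each of the measured microRNA genes from Mir673 to Mir370. By position alone these genes lie inside Rtl1 or Rian. Strand was not compared, so Rtl1 is not named here as their host. Mir341 inside Rian, for one, stood at 9.31 in control 3, between 9.70 and 9.79 in the other controls and between 10.02 and 10.11 in the mutants. The labelling was primed with poly(T), so whether these probe sets read mature microRNA, precursor or host transcript was not tested.

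**Figure D3:**
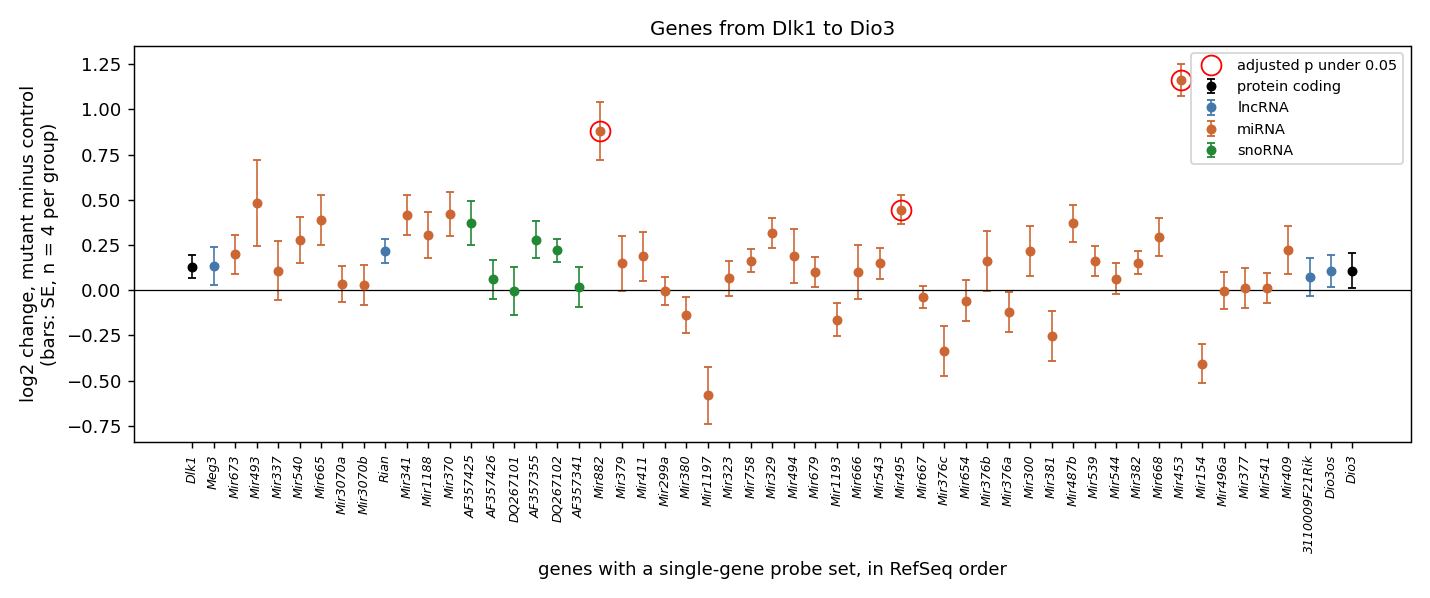
Log2 difference between mutant and control lungs (y axis) for the 55 measured genes between Dlk1 and Dio3. Genes are placed in RefSeq order along the chromosome with equal spacing (x axis) and coloured by kind of gene. Points are limma estimates and bars their SE (n = 4 per group). Mir453 (1.16) lies highest and Mir1197 (-0.58) lowest, with 43 of the 55 above 0.

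Probe sets that list a member together with another gene were read separately. Of the 18 such probe sets 2, both of the Dlk1-Dio3 cluster, rose and none fell in limma over the 41345 probe sets, where 0.239% rose and 0.0822% fell. The groups were apart with mutants higher in 6 of the 18 and with mutants lower in 1, beside 3.43% and 2.93% of all probe sets. The first lists Rian with the small nucleolar RNA DQ267100 and stood at 9.52, 9.48, 9.40 and 9.61 in controls and at 10.50, 10.21, 10.61 and 10.11 in mutants, a difference of 0.86 with an adjusted p of 0.0318. The second lists Mirg with Mir485 and differed by 0.89, with an adjusted p of 0.0286. The probe set of Meg3 with Mir770 stood at a mean of 10.12 in controls and 10.42 in mutants. It differed by 0.29 with mutants wholly above controls and an adjusted limma p of 0.58. Another probe set of Meg3, with Mir1906-1 and Mir1906-2, stood at 9.48 and 9.77 and differed by 0.29 with overlapping groups. The probe sets of Rtl1 ranged from -0.05 to 0.34. Outside the cluster, H19 with Mir675 differed by -0.04, and the pair of probe sets for Snrpn with Snurf by 0.15 and -0.18.

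Outside these clusters Sfmbt2, a paternally expressed member, had the largest positive difference. Sfmbt2 encodes a Polycomb group protein and is imprinted mainly in extraembryonic tissue. It stood at 7.098, 6.99, 6.87 and 6.91 in controls and at 7.22, 7.30, 7.24 and 7.20 in mutants. The mutants lay closely together and above every control, with a difference of 0.27 ± 0.07 (SE) and an adjusted p of 0.12 in limma. Plagl1, a zinc finger transcription factor that slows the cell cycle, stood at 11.86, 11.87, 11.54 and 11.63 in controls and at 12.01, 11.93, 11.89 and 11.86 in mutants, a difference of 0.20 with an adjusted p of 0.476. The groups of Plagl1 just touched, and a second, dim Plagl1 probe set differed by -0.36 in the opposite direction, so that the mean of both gave -0.08. Nnat, neuronatin of the endoplasmic reticulum, stood at 11.78, 11.74, 11.70 and 11.82 in controls and at 11.62, 11.65, 11.64 and 11.37 in mutants. Its mutants all lay below its controls, by -0.19 with an adjusted p of 0.465 in limma, and its second probe set gave -0.35 with groups that overlapped.

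Gatm, the enzyme of the first step of creatine synthesis and imprinted in placenta, had the largest negative difference among the members. It stood at 8.21, 8.24, 8.07 and 8.21 in controls and at 7.995, 7.90, 7.88 and 7.48 in mutants. Every mutant lay below every control, with mutant 4 well below the rest. The difference was -0.37 ± 0.11 (SE), with an adjusted p of 0.239 in limma.

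**Figure D4:**
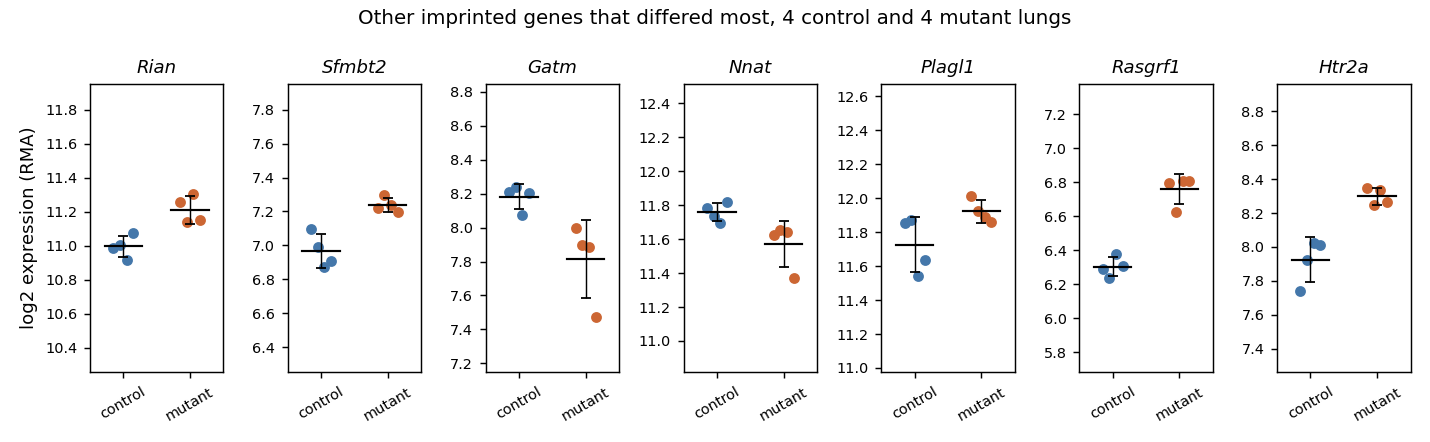
Log2 expression (y axis) of Rian, Sfmbt2, Gatm, Nnat, Plagl1, Rasgrf1 and Htr2a in 4 control and 4 mutant lungs; points are embryos, horizontal lines group means and bars 1 SD, with y axes of equal span. Mutants lie above controls for Rian, Sfmbt2, Rasgrf1 and Htr2a and below them for Gatm and Nnat, while the groups of Plagl1 overlap by a single pair of embryos.

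The other clusters differed little. In the Kcnq1 cluster the growth regulators and transporters are maternally expressed under the paternal noncoding RNA Kcnq1ot1. Kcnq1ot1 differed by 0.02, Kcnq1 by 0.03, Cd81 by 0.00, Slc22a18 by -0.02, Ascl2 by -0.05 and Tssc4 by -0.09. Phlda2, a maternally expressed brake on placental growth, differed by 0.25 with overlapping groups, 6.59 ± 0.24 in controls and 6.84 ± 0.10 in mutants (SD, n = 4 each), and an adjusted limma p of 0.512. In the Snrpn-Ndn cluster Ndn differed by -0.00, Magel2 by 0.01, Mkrn3 by -0.05 and the ubiquitin ligase Ube3a by -0.03. These 4 genes stayed within 0.05 of 0.

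In the Peg3 cluster Peg3, a zinc finger protein with a role in maternal care and growth, differed by 0.07, Usp29 by -0.05 and Zim1 by 0.03. Mest, a mesodermal hydrolase-like protein, stood at 12.65 ± 0.03 (SD, n = 4) in both groups and differed by -0.01, and its neighbour Copg2 differed by -0.13. In the Airn cluster the noncoding Airn differed by 0.12 and Slc22a2 by 0.06, and in the Peg13 cluster Peg13 differed by -0.00, Trappc9 by -0.09 and the potassium channel Kcnk9 by 0.14. Grb10, an adaptor that dampens insulin signalling, differed by -0.02, Gnas by 0.02, Impact by 0.04 and Zdbf2 by -0.00. In all of these genes the groups overlapped.

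A further list of 40 imprinted genes outside the 48, of which 33 were measured, gave 1 gene that rose and none that fell in limma, beside 0.604% and 0.248% of all genes. At an unadjusted p under 0.05, 4 were higher and 2 lower, beside 5.61% and 4.26% of all genes. The gene was Rasgrf1, a paternally expressed exchange factor for Ras. Rasgrf1 stood at 6.29, 6.24, 6.38 and 6.31 in controls and at 6.80, 6.63, 6.81 and 6.81 in mutants. The groups were well apart, and the difference of 0.46 ± 0.07 (SE) had an adjusted p of 0.0073 in limma, which was above 0.05 in 3 of 22 alternatives: 0.067 on litter means, 0.0531 without litter 1 (controls 1 and 2) and 0.0692 without litter 4 (mutants 3 and 4). Htr2a, the serotonin receptor 2A, stood at 7.74, 7.92, 8.03 and 8.01 in controls and at 8.35, 8.25, 8.34 and 8.26 in mutants. Its groups were apart too, and the difference of 0.37 ± 0.08 (SE) had an adjusted p of 0.0504, with 8 of 23 alternatives under 0.05. In that list 4 genes had mutants wholly above controls and 3 wholly below, beside 4.48% and 3.6% of all genes. After Rasgrf1 and Htr2a the largest of these differences were 0.32 for Qpct, 0.18 for Gab1 and -0.18 for Ddc, and the remaining pair, Cdkn1c and Nap1l4, differed by -0.16 and -0.07. The median of the 33 was 0.01.

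Of 30 genes that set and keep imprints, which include DNA methyltransferases and zinc finger proteins that protect imprints, none rose or fell in limma, beside 0.852% of all genes. At an unadjusted p under 0.05, 1 was higher and 1 lower, beside 5.61% and 4.26% of all genes, and the median difference was 0.01. The groups were apart for Nlrp5, with 0.29, and for Hells, a chromatin remodeller that aids DNA methylation, with -0.22. Beside these 2 of 30, 4.48% of all genes had mutants wholly above controls and 3.6% wholly below. Of 12 genes of PRC2, none rose or fell in limma, and 1, Epop, was higher at an unadjusted p under 0.05, by 0.21. The shares of all genes are again 0.852% called and 5.61% higher at that p, so counts this small are near the background. Epop, with mutants higher, and Ezh2, with mutants lower, were the PRC2 genes with groups apart, beside the same 4.48% and 3.6% of all genes.

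Markers of cell types that the organ, or tissue dissected with it, could hold differed between the groups in part. Among all genes 0.604% rose and 0.248% fell, and 4.48% had mutants wholly above controls and 3.6% wholly below. At an unadjusted limma p under 0.05, 5.61% of all genes were higher and 4.26% lower. Of 8 oesophagus and stomach markers 3 rose in limma, Krt4 by 1.22, Pax9 by 0.78 and Trp63 by 0.71. The list had a mean difference of 0.38 but a median of 0.14, with 6 positive and 2 negative. Its mean level, shifted mainly by those 3 genes, ran from 6.81 to 6.97 in controls and from 7.16 to 7.37 in mutants. Of 7 mesothelium markers 1 rose (Upk1b, 0.46), with list means from 7.92 to 8.07 in controls and from 8.16 to 8.24 in mutants. Of 9 smooth muscle markers all had negative differences and Cnn1 fell by 0.46, with list means from 9.88 to 9.99 in controls and from 9.62 to 9.80 in mutants. In these lists the embryo means of the groups did not overlap. At an unadjusted limma p under 0.05, 4 of the 8 oesophagus and stomach markers and 2 of the 7 mesothelium markers were higher. At that p 4 of the 9 smooth muscle markers were lower. No marker of these lists passed in the other direction. The 2 higher mesothelium markers were Upk1b and Krt19. Krt19 differed by 0.50 with overlapping groups and is also in the lung epithelium list below. The mesothelium list had a mean difference of 0.17 but a median of 0.08.

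Of 21 lung epithelium markers 1 rose (Napsa, 0.64) and 1 fell (Foxa1, -0.56), 1 had mutants wholly above controls and 8 wholly below, and the list means ran from 9.75 to 9.96 in controls and from 9.75 to 9.86 in mutants. At an unadjusted limma p under 0.05, 2 of these 21, Napsa and Krt19, were higher and 9 lower, beside 5.61% and 4.26% of all genes. Of 16 mesenchyme markers none was called in limma, with 1 higher and 1 lower at an unadjusted p under 0.05. The mesenchyme list means ran from 10.84 to 10.88 in controls and from 10.89 to 10.94 in mutants. Of 7 neuron and neural crest markers Ret fell by 0.43, with overlapping list means. None was called among 12 endothelium, 8 blood, 11 muscle and 4 placenta markers, and the list means of the groups overlapped in each. Those of the placenta markers lay between 5.94 and 6.06 in the 8 lungs. At an unadjusted p under 0.05 in limma, 1 endothelium marker was higher, and the neuron and muscle lists each had 1 higher and 1 lower. No blood or placenta marker passed. On this scale no marker can be at 0. The part of these shifts in the values of the imprinted genes was not tested.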

How the data were processed

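RNA of 8 whole lungs was labelled from 100 ng with poly(T) priming and read on Affymetrix arrays. The deposited values are log2 expression levels per probe set, made by the authors with RMA in oligo, per the submitters' processing notes, which also name limma; no versions were listed. The method forces the arrays to a common distribution, so a shift of most genes would not be seen. Of 41345 probe sets, 23521 list 1 gene, 1814 several and 16010 none.

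The members and all gene lists were chosen with earlier results of these data known. Each gene kept its brightest single-gene probe set. The fit used limma 3.58.1 in R 4.3.3 on 22180 genes, two-sided, with litter as a random block (correlation 0.153), and was tested on simulated data first. Named were every measured member, with values per embryo for the Peg10-Asb4 genes and for members with groups apart or an unadjusted p under 0.05; of the other lists, counts, called genes and up to 5 genes with groups apart. The genes between Dlk1 and Dio3 were named after their values were seen. Labels do not say whether arrays were run together. Listed but not read by the rule were Ddc2, Dcn2, Slc22a3, Zrsr1, H19, Mirg, Rtl1 and Snrpn. Alternatives covered blocking, single embryos and litters, filters, scaling, the summary of probe sets, the prior, array weights and Xist level. Xist was low in 2 of the 4 controls and in 1 of the 4 mutants, so the groups were unequal in it. The number of arrays limits the precision.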

Additional observations from a re-analysis of the deposited data

Results flagged for a closer look

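In 7 of 90 groups of 4 embryos tested, 1 embryo lay far from the other 3; about 1 in 20 groups, or 4.5 of 90, is flagged by chance. Asb4 in mutant 3 was 8.62, below the other mutants. Nnat in mutant 4 was 11.37 and Cd81 in mutant 4 was 12.94, each the lowest of its group. Peg3 in control 3 was 12.35, the lowest control, and Mkrn3 in control 3 was 7.36, the highest control. Impact in control 2 was 10.17, above the other controls. Rasgrf1 in mutant 2 was 6.63, below the other mutants.

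Signal outside the genes read by the rule was found in probe sets that list no gene or several. By probe set number, 30 probe sets run from that of Rian to that of Mir379, and 98.5% of the 23148 consecutive pairs of single-gene probe sets lie on 1 chromosome in RefSeq. All 13 single-gene probe sets of this run lie between Dlk1 and Dio3, but a number gives no position, and the 16 probe sets without a gene are not named here. Of the 30, 5 rose and none fell in limma, beside 0.239% and 0.0822% of all probe sets. Mutants lay wholly above controls in 16 and wholly below in none, beside 3.43% and 2.93% of all probe sets. Rian, at which the run starts, is 1 of the 16. Probe set 17278779 stood at 7.15, 7.16, 6.73 and 7.22 in controls and at 11.24, 11.23, 11.17 and 11.09 in mutants, a log2 difference of 4.12, the highest of the 41345 probe sets. Probe set 17278759 stood at 6.18, 6.89, 6.64 and 6.64 in controls and at 9.42, 8.91, 8.82 and 9.14 in mutants, a difference of 2.49. Probe sets 17278757 and 17278767 differed by 1.03 and 0.62. Probe set 17278769, listed as DQ267100 and Rian, differed by 0.86, and 17278858, listed as Mir485 and Mirg, by 0.89. These log2 differences stand beside 0.22 for Rian itself. Litter, strain share and genotype cannot be told apart in them.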

How the results depend on the processing

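The fit was repeated under 23 alternatives, of which the one without control 3 and mutant 3, at the ends of the first principal component, was chosen after seeing the data. Of the 40 members 21 kept their sign throughout; of the 16 beyond 0.1 in size 15 did, Plagl1 being the exception at -0.08 for the mean of its probe sets. The cause of these shifts was not tested.

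The members called numbered 1 with no litter block, without litter 1, without litter 4, over genes at or above the median level, with quantile normalization, with a trend and robust prior, with array weights, without control 3 and mutant 3, and at an adjusted p of 0.1, and 3 (Asb4, Peg10 and Sfmbt2) with the Xist covariate. Without single embryos they numbered 0 to 1. Members with groups apart numbered 15 without litter 1, 15 without litter 2, 11 without litter 3, 11 without litter 4, 12 without control 3 and mutant 3, and 8 to 11 without single embryos, since fewer embryos overlap less often.

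The maternal median was -0.052 without litter 1, -0.043 without litter 4, -0.0496 with arrays centred on their median and 0.0033 with quantile normalization, and ran from -0.022 to 0.0066 without single embryos. The paternal median was 0.0503 without litter 1, -0.0102 with centred arrays and 0.0447 without control 3 and mutant 3, and ran from 0.0041 to 0.0476. The Peg10-Asb4 median was 0.0554 without litter 2, and ran from -0.0714 to 0.0109. The median of the other members was 0.0021 over genes at or above the median level, -0.0153 with centred arrays and 0.000902 with the Xist covariate, and ran from -0.00014 to 0.0179.

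Of all genes 189 were called, 285 with no litter block, 98 on litter means, 98 without litter 4, 674 with the Xist covariate, 291 at an adjusted p of 0.1, 81 at 1.5-fold, and 101 (without mutant 4) to 232 without single embryos. Centred arrays gave 113 higher and 74 lower beside 134 and 55. With replicate number as a block 195 genes and no member were called; same-numbered embryos correlated at -0.23, -0.05, -0.27 and 0.03, so the numbers do not pair them.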
